A study of Mus musculus with 12 samples.

Results

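The genes described here are *Osgin1* and 9 genes at the centre of the NRF2 antioxidant response, chosen by name: the regulators *Nfe2l2* and *Keap1*, the glutathione genes *Gclc*, *Gclm* and *Slc7a11*, the thiol-repair genes *Txnrd1* and *Srxn1*, and the cytoprotective enzymes *Nqo1* and *Hmox1*. They make up 10 of the 54838 genes in a liver RNA-seq count table. The livers came from 12 female C57BL/6J mice aged 8 to 14 weeks, with no genetic modification, in 4 groups of 3. For 7 days the drinking water was plain or held 25 mM ZnSO4. A single injection followed, of phosphate-buffered saline (PBS) or of 200 µg dexamethasone, a synthetic glucocorticoid (DEX in the labels, Dex here), and livers were taken 2 h later. The groups are called water-PBS (the controls), zinc-PBS, water-Dex and zinc-Dex. The design asks what Dex does on each water, what zinc does after each injection, and whether the effects depend on each other.

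NRF2, the protein of *Nfe2l2*, is a transcription factor that is normally bound by KEAP1 and passed to the proteasome. Oxidants and electrophiles modify KEAP1, NRF2 escapes and pairs with a small MAF protein, and the pair binds antioxidant response elements at genes for glutathione synthesis, thiol repair, NADPH supply and detoxification. *Osgin1* (oxidative stress induced growth inhibitor 1) is a gene that oxidative stress induces in other settings. NRF2 is controlled largely as a protein, which RNA levels do not show.

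The 12 libraries held between 9091152 and 12303527 counted reads. The summed level of 6 hepatocyte markers ran from 1201520 to 1408980 normalized counts in the PBS-injected mice and from 1558650 to 1726170 in the Dex-injected mice. Most of that sum came from *Alb*, at 961037 to 1349830 over the libraries. On the log2 scale *Alb* (0.30), *Ttr* (0.18), *Apoa1* (0.59), *Cps1* (0.40) and *Cyp2e1* (0.31) rose with averaged Dex, and *Serpina1a* (0.15) did not pass. A set of 6 Kupffer cell (liver macrophage) markers lay between 3846 and 5503 in all mice, and a set of 5 lymphocyte markers was low throughout, at 27.1 to 48.7 after PBS and 10.2 to 26.1 after Dex. The 5 red blood cell markers summed to 778 to 1561 after PBS and 1212 to 2135 after Dex, and 4 of them, the globin genes, rose with averaged Dex by 0.66 to 0.68 on the log2 scale. Of 5 sinusoidal endothelial markers, *Lyve1* rose (2.67) and *Kdr* fell (-1.20) past the fold threshold with averaged Dex. The 5 stellate cell markers summed to 2771 to 3093 after PBS and 3172 to 3685 after Dex. Among them *Ecm1* (0.32) and *Reln* (0.28) rose and *Lrat* (-0.57) fell with averaged Dex. The 4 cholangiocyte (bile duct cell) markers summed to 621 to 1115 after PBS, 556 to 787 in water-Dex and 918 to 1134 in zinc-Dex. The 5 pancreas and gut markers summed to 518 to 751, nearly all from *Fabp2*, with *Cela2a* at 2.20 to 11.1, *Vil1* at 2.03 to 25.3 (lower with Dex on zinc water, adjusted p = 0.0043), and *Prss1* and *Cpa1* at 0 in every library. Whether the marker levels have a part in the results below was not tested, and in bulk liver fewer cells of a type and less RNA per cell cannot be told apart.

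Levels below are normalized read counts (raw counts divided by DESeq2's size factor for the library), given as mean ± SD with n = 3 mice per group, and differences are log2 fold changes with their standard error (SE). A gene passed the test when its adjusted p was under 0.05 (DESeq2's Wald test, Benjamini-Hochberg adjustment over all genes tested), and it was called when its log2 fold change also exceeded 0.8 in size, or 1.74-fold. "Rose" and "fell" are used only of genes that passed.

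Dex changed 3 of these genes by more than that fold on at least 1 of the waters. *Osgin1* fell to a few percent of its PBS level, *Nfe2l2* fell on both waters and was called on plain water, and *Srxn1* rose on both waters and was called on zinc water. Zinc moved a single member, *Gclc*, which fell by less than the fold threshold after either injection. *Gclm*, *Txnrd1*, *Nqo1* and *Hmox1* did not pass in any comparison.

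**Figure D1:**
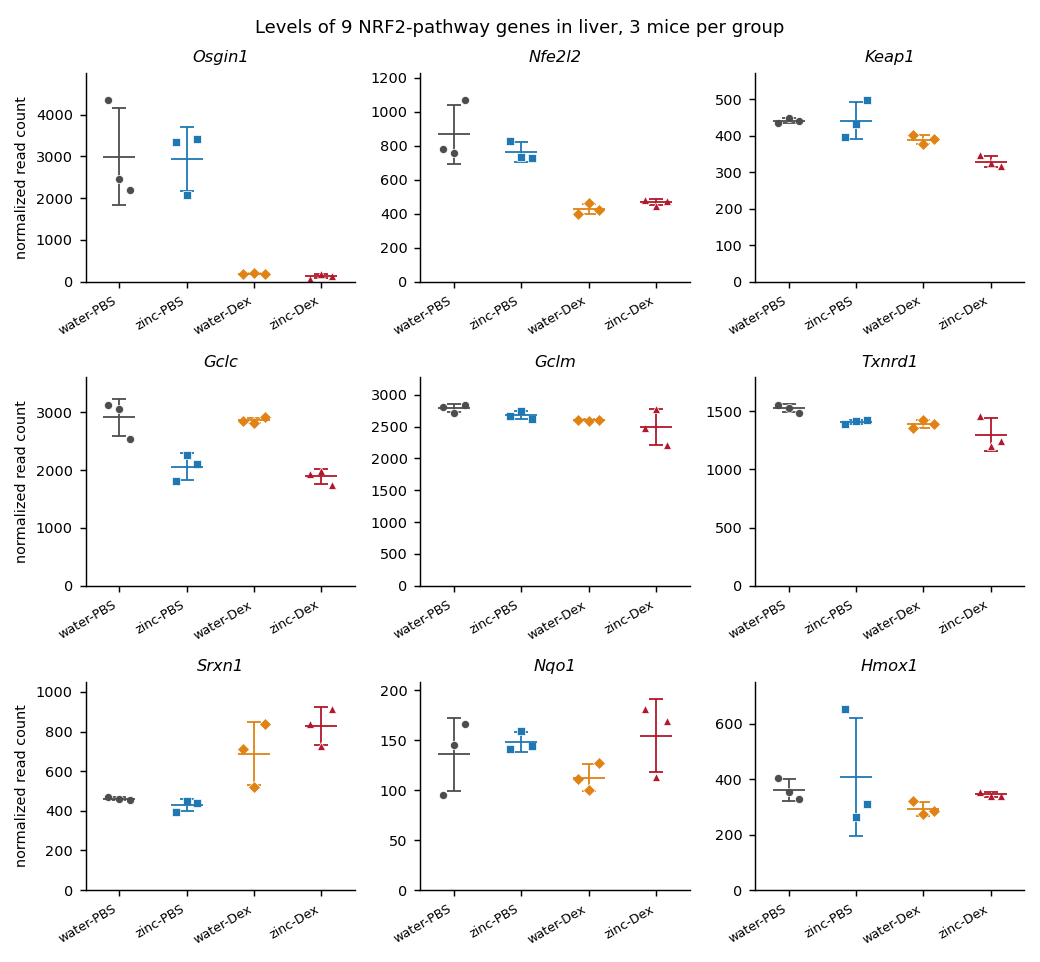
Normalized read count (y axis, linear, from 0) of 9 genes in each mouse (points), with the mean and SD of each group of 3 mice (horizontal bars and whiskers). *Osgin1* lay between 2064 and 4339 in the PBS-injected mice and between 70.6 and 199.9 in the Dex-injected mice, and *Gclc* was lower in every zinc mouse than in every plain-water mouse.

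Per kilobase of exon in the water-PBS livers, *Osgin1* was the most abundant of the 10 genes, at 1120 ± 438 normalized counts per kilobase, followed by *Gclc* at 773 ± 86.1, *Gclm* at 444 ± 10.4 and *Nfe2l2* at 228 ± 45.5. *Txnrd1* (215 ± 4.87), *Hmox1* (207 ± 22.3) and *Srxn1* (164 ± 2.09) came next, and *Keap1* (94.1 ± 1.59) and *Nqo1* (87.4 ± 23.3) were lowest of those measurable. The ranges of *Osgin1* and *Gclc*, of *Nfe2l2* and *Txnrd1*, of *Txnrd1* and *Hmox1*, and of *Keap1* and *Nqo1* overlapped, so these neighbours did not differ beyond their spread. *Slc7a11*, which encodes the cystine carrier of the cystine/glutamate exchanger, had 0 to 2 raw counts per library and 11 in all, at or under the floor of 3 counts per library, and no fold is given for it.

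*Osgin1* (ENSMUSG00000074063) lies on the plus strand of mm10 at chr8:119434124-119446256. After PBS its level was 4339, 2459 and 2189 in the 3 plain-water mice and 3344, 2064 and 3419 in the zinc mice. After Dex it stood at 175, 199.9 and 191 on plain water, and at 70.6, 172 and 140.3 on zinc water. The lowest PBS-injected mouse stood far above the highest Dex-injected mouse, and the PBS-injected mice of the 2 waters overlapped.

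On plain water *Osgin1* went from 2996 ± 1171 after PBS to 189 ± 12.8 after Dex, a log2 fold change of -3.99 (SE 0.363, adjusted p = 4.68e-26), so that 6.29% of the PBS mean was left. On zinc water it went from 2943 ± 762 to 128 ± 52.0, a log2 fold change of -4.53 (SE 0.366, adjusted p = 5.68e-33), with 4.34% left. Averaged over both waters the fall was 19.1-fold (log2 fold change -4.26, SE 0.258, adjusted p = 4.53e-59), lower in 6 of 6 Dex-injected mice. Among genes called lower by Dex whose mean reached 50 normalized counts, *Osgin1* had the most negative log2 fold change of 354 genes on plain water, ranked 3 of 383 on zinc water and 2 of 353 averaged over both.

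Zinc left *Osgin1* with no difference that passed the test. After PBS the log2 fold change of zinc against plain water was -0.03 (95% interval -0.73 to 0.68, adjusted p = 1), an interval wide enough to hold a change near the fold threshold. After Dex it was -0.56 (95% interval -1.29 to 0.17, adjusted p = 0.684), although the 3 zinc-Dex mice all lay below the 3 water-Dex mice. The Dex effect on zinc water minus that on plain water was -0.54 (95% interval -1.55 to 0.48, adjusted p = 0.999).

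The genes whose profile was most like that of *Osgin1* were ranked by the root mean square difference between log2(normalized count + 1) profiles over the 12 libraries, each centred on its own mean, among 9573 genes whose mean reached 50. The closest was *Arrdc3*, an alpha-arrestin gene, at 0.60, against a median of 2.19 over all genes compared. *Id2*, an inhibitor of basic helix-loop-helix factors, followed at 0.67, *Tnfaip2*, first described as induced by tumour necrosis factor, at 0.68, *Pde4b*, a cyclic AMP phosphodiesterase, at 0.77, and *Hes1*, a transcriptional repressor downstream of Notch, at 0.84. Their log2 fold changes by Dex lay between -3.24 and -3.09 on plain water and between -3.85 and -2.55 on zinc water, each smaller in size than that of *Osgin1*. They were chosen for their likeness to *Osgin1*, so these values are a description.

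The promoter of *Osgin1* was searched for letters of interest, using the RefSeq window on the mm10 assembly from 250 bases before the transcription start to 50 after it, which lies inside the gene as GENCODE draws it. The 250 bases before that start are printed 5′ to 3′ on the plus strand (chr8:119436897-119437146), with capitals marking the letters TGACTCA, an AP-1 (FOS-JUN) site.
Osgin1 promoter: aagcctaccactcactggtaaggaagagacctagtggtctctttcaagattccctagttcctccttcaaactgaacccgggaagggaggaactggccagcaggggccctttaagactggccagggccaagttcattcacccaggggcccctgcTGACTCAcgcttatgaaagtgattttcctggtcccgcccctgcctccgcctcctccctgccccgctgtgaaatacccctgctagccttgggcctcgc
The AP-1 letters began at position -97 counted from the start, and this motif was added to the search after the sequence had been read. It was present on either strand in 5.2% of 32851 promoter windows of the same length. Neither the antioxidant response element core TGACNNNGC nor the full glucocorticoid receptor palindrome (AGAACA and TGTTCT, 3 bases apart) was found in the *Osgin1* window. Only this form of the core was searched. Whether the window holds another form of the element, including any that overlaps the AP-1 letters, was not tested.

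Promoter windows were found for 8 of the 10 genes, 10 windows in all. *Gclc* and *Hmox1* had no window and were not searched. The antioxidant response element core was found in 4 of the 10 windows, each of a different gene, against 12.4% of all windows. Each match is printed with its flanks on the strand that carries it, 30 bases in all, with the core in capitals.
Nfe2l2 (chr2:75704884-75704913, position -240): tcagcccaccTGACTCCGCcatgccccgga
Gclm (chr3:122245413-122245442, position -134): ctcgtgagagtTGACGGTGCgcccgggagc
Txnrd1 (chr10:82859104-82859133, position -92): ccgtgtcagaaTGACAAAGCaaaaatccag
Srxn1 (chr2:152105542-152105571, position 29): gtgtctcactcTGACCTAGCtgcccactgc
The *Gclm*, *Txnrd1* and *Srxn1* matches are on the strand opposite to the gene, and the *Txnrd1* match is in 1 of its 3 windows. The *Srxn1* window also held the AP-1 letters, at positions -102 and -45, and no window of these genes held the glucocorticoid receptor palindrome, which was present in 0.00913% of all windows. The genes with a core did not share a direction of change: *Nfe2l2* fell, *Srxn1* rose, and *Gclm* and *Txnrd1* did not pass. A match is a description of the letters, not of binding.

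*Nfe2l2* (ENSMUSG00000015839, minus strand, chr2:75675513-75704641) was measured at 780.3, 755 and 1066 normalized counts in the water-PBS mice and at 829.5, 732 and 728 in the zinc-PBS mice. The water-Dex mice had 398, 462 and 422 and the zinc-Dex mice 480.1, 448 and 472. Every Dex-injected mouse lay below every PBS-injected mouse. On plain water the mean went from 867 ± 173 to 427 ± 32.1 (log2 fold change -1.02, SE 0.134, adjusted p = 1.17e-12), and on zinc water from 763 ± 57.6 to 467 ± 16.9 (log2 fold change -0.71, SE 0.134, adjusted p = 2.05e-06), which passed the test and not the fold threshold. Averaged over both waters the log2 fold change was -0.86 (adjusted p = 2.45e-18) and the gene was called, and without water-PBS replicate 3, the mouse with 1066, it was -0.78 and was not. The 2 effects were not shown to differ, their difference being 0.31 (95% interval -0.06 to 0.68, adjusted p = 0.999).

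*Keap1* (ENSMUSG00000003308, minus strand, chr9:21229730-21239361), whose protein binds NRF2 for degradation, stood at 442 ± 7.47 in water-PBS and 442 ± 50.8 in zinc-PBS. It was 389 ± 12.3 in water-Dex and 329 ± 15.7 in zinc-Dex, where the mice had 346, 324 and 316. It fell with Dex on zinc water (log2 fold change -0.43, SE 0.108, adjusted p = 0.000797), and on plain water the log2 fold change was -0.18 (adjusted p = 0.244). Zinc against plain water after Dex gave -0.24 (adjusted p = 0.383), although all 3 zinc-Dex mice lay below the water-Dex mice. An antisense gene, Gm16754, shares 510 exon bases with *Keap1* and had 34 counts in all libraries against 4875.

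The ratio of *Nfe2l2* to *Keap1*, taken per exonic base within each library so that library scaling cancels, was 2.43 ± 0.493 in water-PBS, 2.16 ± 0.390 in zinc-PBS, 1.36 ± 0.146 in water-Dex and 1.75 ± 0.0783 in zinc-Dex. The water-Dex mice lay below the other 9, and the zinc-Dex range of 1.71 to 1.85 reached into that of zinc-PBS, which began at 1.81. This ratio and the glutathione ratio below were chosen after the genes' values had been seen and were not tested.

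*Gclc* and *Gclm* encode the catalytic and modifier subunits of glutamate-cysteine ligase, the rate-limiting enzyme of glutathione synthesis. *Gclc* (ENSMUSG00000032350, plus strand, chr9:77754535-77794485) had 3132, 3064 and 2539 normalized counts in water-PBS, and 1803, 2259.7 and 2105 in zinc-PBS. The water-Dex mice had 2849.9, 2809.9 and 2912, and the zinc-Dex mice 1939, 1993 and 1739. All 6 zinc mice lay below all 6 plain-water mice, whichever injection they received.

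Zinc lowered *Gclc* after PBS from 2912 ± 324 to 2056 ± 232 (log2 fold change -0.50, SE 0.107, adjusted p = 0.00283) and after Dex from 2857 ± 51.4 to 1890.1 ± 134 (log2 fold change -0.60, SE 0.108, adjusted p = 3.09e-05). Averaged over both injections the log2 fold change was -0.55 (SE 0.0759, adjusted p = 6.97e-10). The zinc levels were 70.6% and 66.2% of the plain-water means, short of the fold threshold. The change after PBS was the less firm of the pair: it passed in 9 of 13 alternative fits, and its adjusted p was 0.124 with edgeR's quasi-likelihood test. Dropping water-PBS replicate 1 gave 0.0557, dropping water-PBS replicate 2 gave 0.0663, and dropping zinc-PBS replicate 1 gave 0.0703. Dex gave log2 fold changes of -0.03 on plain water (adjusted p = 0.903) and -0.12 on zinc water (adjusted p = 0.511).

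*Gclm* (ENSMUSG00000028124, plus strand, chr3:122245557-122270732) had means of 2793 ± 65.3 in water-PBS, 2681 ± 65.4 in zinc-PBS, 2599 ± 12.9 in water-Dex and 2489 ± 284 in zinc-Dex. Its log2 fold changes by zinc were -0.06 after PBS (95% interval -0.22 to 0.10) and -0.06 after Dex (95% interval -0.23 to 0.10), and by Dex -0.10 and -0.11 on the 2 waters, none of which passed. The intervals by zinc exclude the fall measured for *Gclc*. The *Gclc* to *Gclm* ratio per exonic base was 1.74 ± 0.219 in water-PBS and 1.84 ± 0.0256 in water-Dex, against 1.28 ± 0.132 in zinc-PBS and 1.27 ± 0.0648 in zinc-Dex. Plain-water mice ran from 1.49 to 1.88 and zinc mice from 1.13 to 1.37, with no overlap.

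**Figure D2:**
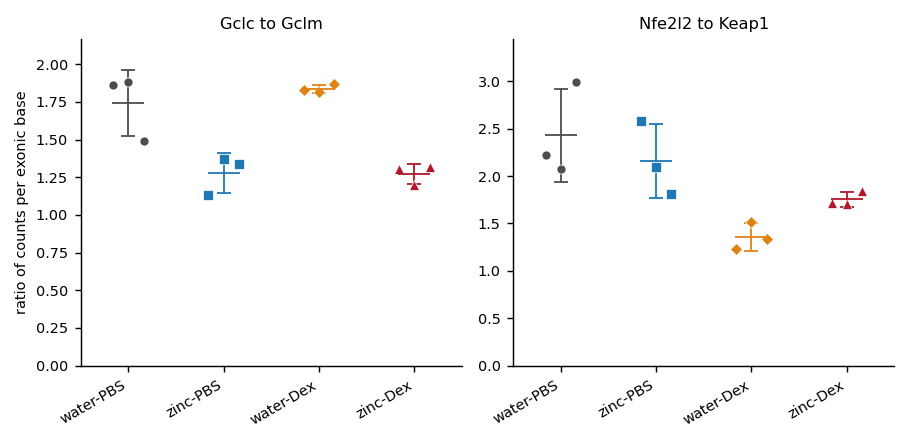
Ratio of *Gclc* to *Gclm* and of *Nfe2l2* to *Keap1* in each mouse, from counts per exonic base (y axes, linear, from 0), with the mean and SD of each group of 3. The zinc mice are lower than the plain-water mice for *Gclc* to *Gclm*, and the water-Dex mice are the lowest for *Nfe2l2* to *Keap1*.

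*Srxn1* (ENSMUSG00000032802, plus strand, chr2:152105516-152111376) encodes sulfiredoxin, which restores over-oxidized peroxiredoxins. It was at 468, 460.5 and 457 normalized counts in the water-PBS mice and 396, 449 and 442 in the zinc-PBS mice. After Dex it was at 709.7, 519 and 836 on plain water and 841, 729 and 915 on zinc water. Each Dex-injected mouse stood above each PBS-injected mouse, with the widest spread in water-Dex.

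On plain water *Srxn1* went from 462 ± 5.88 to 688 ± 159.6 (log2 fold change 0.58, SE 0.152, adjusted p = 0.00142), below the fold threshold, and on zinc water from 429 ± 28.7 to 828 ± 93.8 (log2 fold change 0.95, SE 0.152, adjusted p = 9.52e-09), above it. Averaged over both waters the log2 fold change was 0.76 (adjusted p = 2.44e-11), just under the threshold, and dropping water-Dex replicate 2 (0.85) or zinc-Dex replicate 2 (0.80) put it past. The effects on the 2 waters were not shown to differ, with a difference of 0.37 (95% interval -0.05 to 0.79, adjusted p = 0.999).

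*Txnrd1* (ENSMUSG00000020250, plus strand, chr10:82833951-82897712), the cytosolic thioredoxin reductase, varied little: 1526 ± 34.5 in water-PBS, 1409 ± 17.8 in zinc-PBS, 1389.9 ± 32.8 in water-Dex and 1299.7 ± 140.2 in zinc-Dex. Dex averaged over both waters gave a log2 fold change of -0.13 (95% interval -0.24 to -0.01, adjusted p = 0.0952).

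*Nqo1* (ENSMUSG00000003849, minus strand, chr8:107388225-107403206), a quinone reductase often read as a marker of NRF2 activity, had means of 136 ± 36.2 in water-PBS, 148 ± 9.78 in zinc-PBS, 112 ± 13.4 in water-Dex and 155 ± 36.3 in zinc-Dex. The log2 fold change by zinc after Dex was 0.46 (95% interval 0.04 to 0.89, unadjusted p = 0.0338, adjusted p = 0.427), and the ranges overlapped. By Dex it was -0.27 on plain water (95% interval -0.70 to 0.16) and 0.07 on zinc water (95% interval -0.35 to 0.48).

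*Hmox1* (ENSMUSG00000005413, plus strand, chr8:75093621-75100589), the inducible haem oxygenase, had 404, 355 and 327 normalized counts in water-PBS, and 654, 263 and 309.6 in zinc-PBS. After Dex it had 319.8, 273 and 284 on plain water, then 355, 339.9 and 341 on zinc water. A single mouse, zinc-PBS replicate 1, stood above all others. In that library the summed level of 4 neutrophil markers was 98.4, against 14.9 to 48.0 in the other 11. Nearly all of it came from *S100a8* and *S100a9*, whose highest levels in any library were 37.9 and 60.5. The other neutrophil markers were near or at 0, with *Ly6g* at 0 to 1.09 over the libraries and *Mpo* at 0 in every library. Its 6 Kupffer cell markers summed to 4429, inside the range of the other mice. Whether these marker levels have a part in its *Hmox1* level was not tested. With that mouse in, zinc after PBS gave a log2 fold change of 0.18 (95% interval -0.31 to 0.66), and without it -0.34, neither passing.

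**Figure D3:**
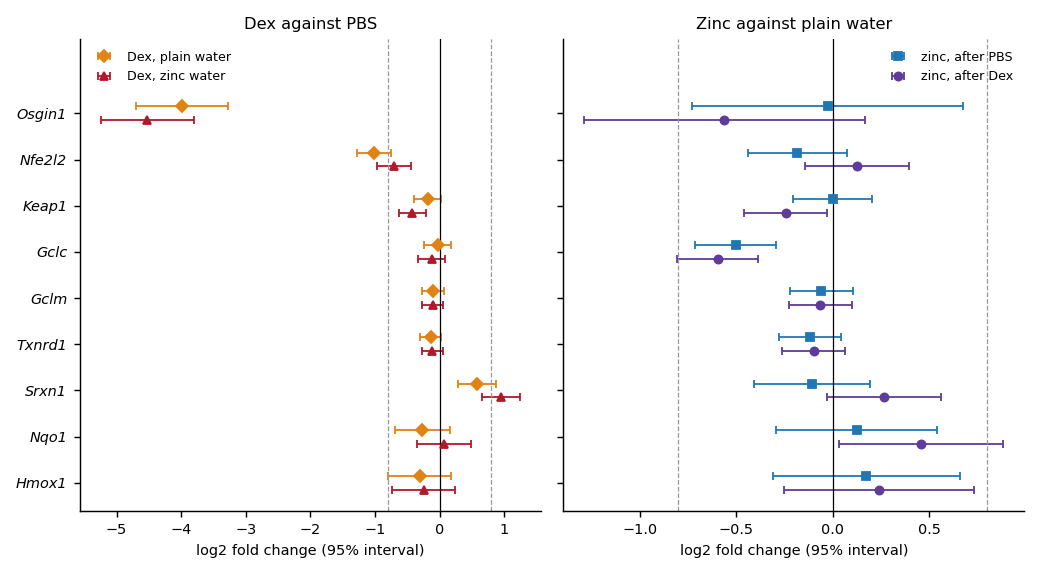
Log2 fold change (x axes) with its 95% interval for 9 genes, by Dex against PBS on each water (left) and by zinc against plain water after each injection (right), from 1 fit over the 12 libraries. Dashed lines mark the fold threshold of 0.8 in either direction. *Osgin1* lies far left of the other genes for Dex, and *Gclc* is the only gene whose zinc intervals both lie below 0.

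Set against all genes, 9 of the 10 were tested in the Dex and zinc comparisons. Dex on plain water called 0 higher and 2 lower (*Osgin1* and *Nfe2l2*), or 2 of 9, where 9.68% of all genes tested were called (21.6% passed at any fold). Dex on zinc water called 1 higher (*Srxn1*) and 1 lower (*Osgin1*), against 9.68% of all genes (20.1% passed at any fold). Averaged over both waters, 2 of 9 were called, both lower, against 10.3% of all genes. Without water-PBS replicate 3 only *Osgin1* was called, and *Srxn1* was called in addition, as higher, without water-Dex replicate 2 and again without zinc-Dex replicate 2. The median log2 fold change of the 9 genes was -0.13 in that comparison, against -0.02 over all genes tested. At any fold, 1 rose and 3 fell, where 28.8% of all genes passed.

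Zinc called 0 of the 9 genes after PBS, where 0.138% of all genes were called, 0 after Dex (0.469%) and 0 averaged over both injections (0.333%). At any fold *Gclc* was the 1 member that passed in each, where 0.341%, 1.35% and 2.47% of all genes passed. At an unadjusted p under 0.05, 1, 3 and 1 of the 9 genes came through, where 5.74%, 10.2% and 12.7% of all genes tested did. The quasi-likelihood test of edgeR also called 0 in each. The interaction of zinc and Dex called 0 of 10, where 0.0191% of 26185 genes were called, low-count genes such as *Slc7a11* included. It had 0 at an unadjusted p under 0.05 (1.99% of those genes) and 0 by edgeR.

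A further 50 genes of the pathway were listed by role. Averaged over both waters, Dex called 2 of the 50 higher and 0 lower, where 4.81% of all genes were called higher and 5.49% lower. At any fold 17 of the 50 rose and 0 fell, where 14.6% of all genes rose and 14.1% fell. The median log2 fold change of the 50 was 0.09, against -0.02 over all genes tested. Dex on plain water called 1 of 49 tested and on zinc water 4 of 50, all higher. On each water 9.68% of all genes tested were called in either direction. At any fold 8 and 13 rose and 0 fell, where 11.7% and 11% of all genes rose.

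The 2 called genes were *Maff* and *Sesn2*. *Maff*, a small MAF protein that can partner NRF2, was at 65.1, 41.0 and 18.7 normalized counts in water-PBS and 113, 32.3 and 34.4 in zinc-PBS, and after Dex at 375, 617 and 467 on plain water and 622, 589 and 556 on zinc water. All Dex-injected mice lay above all PBS-injected mice, and the averaged log2 fold change was 3.42 (SE 0.386, adjusted p = 2.28e-17). The mouse with 113 was the one with the highest *Hmox1*.

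*Sesn2*, a stress-inducible sestrin, was at 97.6 ± 10.9 in water-PBS and 61.7 ± 10.3 in zinc-PBS, and at 161 ± 17.9 in water-Dex and 171 ± 9.61 in zinc-Dex. It rose by 1.10 on the log2 scale averaged over both waters (SE 0.121, adjusted p = 5.22e-18), by 0.72 on plain water (adjusted p = 0.000211) and by 1.47 on zinc water (adjusted p = 2.1e-15). The difference of the last pair was 0.76 (unadjusted p = 0.0018, adjusted p = 0.999). Zinc after PBS gave -0.66 (adjusted p = 0.0757), where the 3 zinc mice lay below the 3 plain-water mice.

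The role counts below refer to averaged Dex at any fold, where 14.6% of all genes rose, and differences between roles were not tested. Of 8 regulators 5 rose: *Maff* and, named after their values were seen, *Mafg* (averaged log2 fold change 0.60), *Mafk* (0.63), *Nfe2l1* (0.27) and *Cul3* (0.18). The small MAF genes are shared partners of several factors, *Nfe2l1* encodes a relative of NRF2 and *Cul3* the scaffold of the ligase that uses KEAP1. *Mafk* shares 169 exon bases with *Tmem184a* on the other strand, and *Mafg* shares 124 with *Sirt7* on its own strand, so their counts may be split between genes.

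Of 8 detoxification and export genes 5 rose, all named here after their values were seen. They were the transporters *Abcc2* (0.68), *Abcc4* (0.61) and *Abcc3* (0.20), the carbonyl reductase *Cbr1* (0.65) and *Ugdh* (0.40), which makes the sugar donor for glucuronidation. In the other groups 2 of 10 glutathione genes, 2 of 8 thioredoxin genes and 1 of 6 NADPH genes rose. Of 6 haem and iron genes 2 rose. Of 4 superoxide and peroxide genes 0 passed, with 1 at an unadjusted p under 0.05, where 36.4% of all genes tested fell under it. Of the haem and iron genes that rose, *Hmox2* (0.59) shares 892 exon bases with *Cdip1* on the other strand. *Cdip1* had 16783 counts in all libraries against 4947 for *Hmox2*, so reads of *Hmox2* may be misassigned. On zinc water alone *Mafk* (0.80) and *Abcc4* (0.86) were also past the fold threshold, and their differences between the 2 waters did not pass (adjusted p = 0.999).

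**Figure D4:**
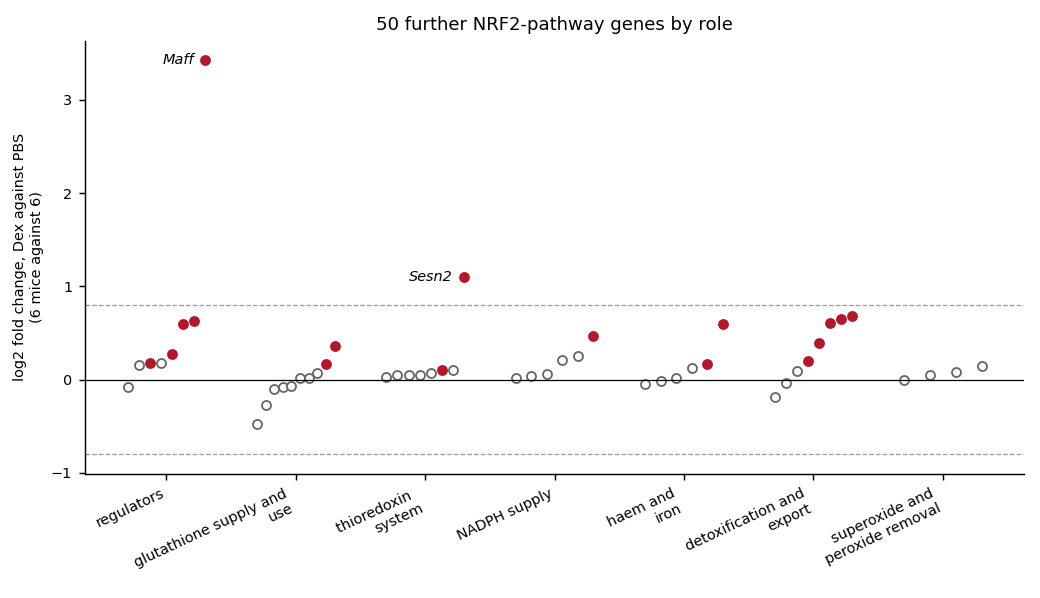
Log2 fold change by Dex averaged over both waters (y axis) of 50 further pathway genes, 1 point per gene, grouped by role on the x axis. Filled points passed the test and open points did not, and dashed lines mark the fold threshold. The 17 filled points are all above 0, with *Maff* and *Sesn2* past the threshold.

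Zinc called 0 of the 49 pathway genes tested in each of its 3 comparisons, where 0.138%, 0.469% and 0.333% of all genes were called, and edgeR also called 0. At an unadjusted p under 0.05 there were 3, 11 and 12 of 49 after PBS, after Dex and averaged, where 5.74%, 10.2% and 12.7% of all genes tested fell under it. Without zinc-Dex replicate 2, 1 gene (*Ugdh*) was called after Dex. At any fold, *Nfe2l1* rose after Dex (log2 fold change 0.32, adjusted p = 0.0232). Averaged over both injections *Gsr*, the glutathione reductase gene, fell (-0.23, adjusted p = 0.0167) and *Ugdh* rose (0.51, adjusted p = 0.0324). These 3 were picked out with their values in view. The interaction called 0 of 50, with 6 at an unadjusted p under 0.05, and edgeR called 0. Of 26185 genes tested for the interaction, 1.99% fell under it. Those included low-count genes that the other comparisons, over 12307 to 17093 genes, left out, so this share is not a like background.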

How the data were processed

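Per the labels and the study's methods, the authors prepared stranded TruSeq single-end libraries from liver RNA, sequenced them on a NextSeq 500, aligned reads to mm10 with HISAT2 2.0.4, and counted reads per gene with featureCounts without multimapping reads. Trimmomatic is among the tools in the submitters' processing notes. The deposited values are raw read counts. The annotation release and strand setting were not given in the sources used here, so reads of overlapping genes may be misassigned. Gene names and coordinates came from GENCODE M21 (54809 of 54838 genes matched) and promoters from RefSeq GRCm38.p6.

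The genes, lists and contrasts were chosen with earlier results of these data known. All 12 libraries (9091152 to 12303527 counts) entered 1 DESeq2 1.42.0 fit (R 4.3.3) with a term per group, and 7 contrasts were tested by the Wald test with unshrunken fold changes, after testing on simulated data. Independent filtering was first run at alpha 0.1, DESeq2's default; it was changed to 0.05, the false discovery rate in use, after those results had been seen and had differed from an earlier analysis of the same table. The member counts called were equal under both. edgeR 4.0.16 was an alternative. p-values measure only the spread between mice within groups of 3, estimated for each gene as 1 value shared by all groups. All 10 genes are named; pathway genes are named by rule when called in the averaged Dex contrast or in any zinc contrast (at most 12), and others as chosen after their values were seen. Alternatives were TMM factors, a count filter, no filtering, no fold threshold, a replicate block, only the libraries compared, and each library left out.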

Additional observations from a re-analysis of the deposited data

Results flagged for a closer look

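Groups of 3 are too small to be screened for a library that stands apart. The 6 PBS-injected and the 6 Dex-injected mice, each mixing plain-water and zinc mice, were therefore screened with Dixon's test, gene by gene. The genes screened were the members except *Slc7a11*, together with *Maff* and *Sesn2*, the pathway genes called by averaged Dex. This choice was made after the high *Hmox1* library had been noticed. Of 22 sets 4 held a mouse whose gap to the next, relative to the whole range, exceeded the test's 95% critical value, where chance gives about 1 in 20. *Nfe2l2* was highest in water-PBS replicate 3, at 1066 normalized counts. *Hmox1* was highest in zinc-PBS replicate 1, at 654, and *Srxn1* was lowest in the same mouse, at 396. *Nqo1* was lowest in water-PBS replicate 1, at 95.6.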

How the results depend on the processing

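Of 951 alternative values for 63 gene-by-comparison results, 923 kept their direction and their side of the threshold, 1 lost the call and 2 gained it. With no fold threshold the members counted rose from 2 to 3 for Dex on plain water, to 4 for Dex on zinc water, 4 for Dex averaged and 1 in each zinc comparison, and the pathway genes to 8, 13 and 17 for Dex on plain water, on zinc water and averaged, 1 for zinc after Dex and 2 for zinc averaged. Leaving out 1 library at a time moved the members called by averaged Dex between 1 (without water-PBS replicate 3) and 3 (without water-Dex replicate 2 or zinc-Dex replicate 2), the pathway genes called by Dex on zinc water between 3 and 6 (without zinc-PBS replicate 1), and the pathway genes called by zinc after Dex between 0 and 1 (without zinc-Dex replicate 2). The other 25 values changed sign, over 14 results, none called in either fit. Leaving out 1 library at a time gave these log2 fold changes. By Dex they ran from -0.12 to 0.027 for *Gclc* on plain water, and on zinc water from -0.062 to 0.24 for *Nqo1* and from -0.48 to 0.27 for *Hmox1*. By zinc after PBS they ran from -0.092 to 0.070 for *Keap1* (0.000443 with only the libraries compared), from -0.072 to 0.29 for *Nqo1*, from -0.34 to 0.41 for *Hmox1* and from -0.21 to 0.34 for *Osgin1*. By zinc after Dex they ran from -0.15 to 0.017 for *Gclm*, and by averaged zinc from -0.073 to 0.060 for *Nfe2l2*, from -0.0032 to 0.16 for *Srxn1* and from -0.049 to 0.33 for *Hmox1*. For the interaction they ran from -0.091 to 0.075 for *Gclm*, from -0.073 to 0.073 for *Txnrd1* and from -0.17 to 0.58 for *Hmox1*. The cause was not tested. Independent filtering at alpha 0.1, added after the data were seen, called the same number of members and pathway genes in every comparison. Replicate numbers gave no sign of pairing the mice: same-numbered mice correlated at -0.204 to 0.191 and others at -0.245 to 0.284. The labels state no pairing, and these overlapping ranges cannot exclude one. With the replicate block the members called stayed at 2, 2 and 2 for Dex and 0 for zinc. Of the genes most like *Osgin1*, 5 of 5 stayed with TMM factors and 4 of 5 with a minimum mean of 20, both added later. Over all genes edgeR called fewer for zinc after PBS (9 against 17) and after Dex (21 against 60), and for zinc averaged 24 against 41. Genes near the floor, such as *Slc7a11*, could not be compared at this depth.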
